A study of Mus musculus with 8 samples.

Results

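The 10 genes described here, Zfp36, Btg2, Dusp1, Ppp1r15a, Egr1, Klf6, Nr4a1, Rhob, Ier2 and Ier3, are immediate early genes outside the AP-1 family whose products restrain or redirect the signals that switch them on. They were taken by symbol from 16729 genes with a read in any of the deposited tables, and were chosen because earlier results of the same data showed them raised in marrow after treatment. The levels in marrow are therefore given as a description. All 10 were listed in every table and all 10 passed the filter of at least 1 FPKM (reads per kilobase of transcript after scaling for library depth) in at least 2 libraries, which each of them met in the control libraries alone. After this filter 11347 genes were tested.

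RNA was sequenced from hematopoietic stem cells (HSCs) of young adult wild-type C57BL/6 mice of both sexes, sorted as lineage-negative, Sca-1+ and c-kit+ cells with high CD150 and absent or low CD48. Phenylhydrazine (PHZ), a compound that lyses red blood cells, was given by intraperitoneal injection at 60 mg/kg in 2 injections, and HSCs were sorted on day 3 after the last of them from bone marrow (PHZ BM HSC, n = 3 libraries) and from spleen (PHZ SP HSC, n = 2). Marrow HSCs of mice labelled as given PBS, which the paper describes as untreated, formed the control group (control BM HSC, n = 3). No HSCs of untreated spleen were analysed here. Tissue and treatment cannot be told apart where PHZ SP HSC is set against control BM HSC. The labels do not say whether the libraries of a group came from separate animals, so p-values measure the spread between these libraries only.

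Immediate early genes are transcribed within minutes of a growth, cytokine or stress signal from factors already present in the cell, with no new protein needed. Many of them encode brakes: phosphatases that switch off the kinases upstream, proteins that send short-lived mRNAs to decay, and transcription factors that repress or redirect the next wave of genes. Their own mRNAs are short-lived, so their level follows recent signalling closely, and in HSCs several of them have been linked to quiescence.

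The libraries held 8222365 to 13212900 reads, of which 43.3% to 48.5% fell on the ribosomal RNA precursor Rn45s. Within a group, pairs of libraries correlated at r = 0.903 to 0.976 over log2(FPKM + 1) of the tested genes, with PHZ BM HSC 1 and 2 the closest pair. All 14 HSC identity genes looked at averaged at least 1 FPKM in each of the 3 groups. Of these limma called 1, beside 1.48% of all genes called higher, namely Gata2, a transcription factor of HSCs and mast cells, in PHZ marrow against control (41.7 ± 5.76 and 76.3 ± 9.80 FPKM, SD, n = 3 each, log2 difference 0.86 ± 0.16). Summed over the 8 of 10 erythroid markers in the tables, the level was 128 to 285 FPKM in control BM HSC, 180 to 340 FPKM in PHZ BM HSC and 939 to 1147 FPKM in PHZ SP HSC. Over 8 neutrophil markers it was 319 to 656, 338 to 842 and 1302 to 1667 FPKM. Over 8 monocyte and macrophage markers it was 249 to 285, 200 to 257 and 347 to 348 FPKM, with Fcgr1 not listed in the control table and at 0 in both spleen libraries. The sum over B cell markers was 26.8 to 53.8 FPKM over all libraries and that over T and NK cell markers 21.8 to 61.2 FPKM. Within the T and NK list, Klrb1c, a receptor of NK cells, had means of 0.947, 2.58 and 16.6 FPKM in the 3 groups and was called higher in spleen than in control (3.19 ± 0.28, limma adjusted p = 0.000866) and than in PHZ marrow (2.30 ± 0.28, limma adjusted p = 0.00477), while Nkg7, the other T and NK marker tested and the most abundant, had means of 36.7, 36.2 and 27.4 FPKM and was not called, and Cd3d was at 0 in all control libraries and at most 1.23 FPKM elsewhere.

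The genes themselves were compact. In the longest protein-coding GENCODE M21 transcript of each gene, the 10 had 1 to 8 exons with a median of 2, where the median of tested genes was 9, and 9 of the 10 had at most 4 exons against 20.5% of tested genes and 24 of 34 paralogs of the members, whose median was 4. Zfp36 (chr7:28376784-28380253, minus strand, GRCm38) had 2 exons, Dusp1 (chr17:26505590-26508519, minus strand) 4 and Ppp1r15a (chr7:45522922-45526146, minus strand) 2. Rhob (chr12:8497661-8500009, minus strand) and Ier2 (chr8:84661331-84662852, minus strand) were single-exon genes. Btg2 lay at chr1:134075170-134079120 on the minus strand, Klf6 at chr13:5861482-5870394, Nr4a1 at chr15:101254269-101274795 and Ier3 at chr17:35821684-35822923, these 3 on the plus strand.

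Promoter sequence was in the RefSeq table for 8 of the 10 genes, all but Egr1 and Ier2, and motifs were looked for on both strands of the 250 bases before each start. The starts are those of RefSeq, and those of Zfp36, Dusp1, Klf6 and Ier3 lie inside the GENCODE transcripts given above. The cAMP response element TGACGTCA, the site of the CREB and ATF factors, stood in 3 of the 8 promoters, those of Btg2, Dusp1 and Ppp1r15a, against 1.55% of all 32851 promoters and 2.57% of the promoters of tested genes, and 1 of 34 promoters of paralogs. Its 5-letter core TGACG, which the full element contains, was also in the Nr4a1 promoter, which held 4 copies, and was in 17.8% of all promoters, 27.3% of those of tested genes and 14 of 34 of those of the paralogs. The CArG box of serum response factor, the classical switch of immediate early genes, was in the Zfp36 promoter alone among the 8 and in 1.47% of all promoters, and stood in 5 of 34 promoters of the paralogs of these genes. GGGCGG, the SP1 box, was in 7 of 8, against 32.7% of all promoters, 57.9% of those of tested genes and 25 of 34 of those of the paralogs. The EGR box GCGNGGGCG was in 3, Btg2, Nr4a1 and Zfp36, against 4.7% of all, 8.6% of those of tested genes and 8 of 34 of those of the paralogs. Neither the AP-1 site TGANTCA (6.75% of all) nor TATAAA (12.4%) was in any of these 8 windows. The 4 windows below hold the full cAMP response element or the CArG box, in capitals, and are shown because they carry the least common of these motifs. They run 5′ to 3′ on the minus strand of GRCm38.p6, at chr1:134079268-134079367, chr17:26508562-26508661, chr7:45526269-45526368 and chr7:28379232-28379331.
Btg2: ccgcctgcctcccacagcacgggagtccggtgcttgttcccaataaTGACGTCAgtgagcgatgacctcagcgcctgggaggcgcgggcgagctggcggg
Dusp1: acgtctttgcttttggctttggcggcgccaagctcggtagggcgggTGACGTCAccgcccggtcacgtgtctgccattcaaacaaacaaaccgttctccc
Ppp1r15a: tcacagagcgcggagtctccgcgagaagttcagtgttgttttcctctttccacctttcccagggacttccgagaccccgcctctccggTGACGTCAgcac
Zfp36: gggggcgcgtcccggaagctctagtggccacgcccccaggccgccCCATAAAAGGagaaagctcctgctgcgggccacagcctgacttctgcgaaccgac

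At the other end of the transcript, AU-rich elements in the 3' UTR mark mRNAs for decay and are the sites to which the Zfp36 protein, tristetraprolin, binds. The core ATTTA was counted in the 3' UTR of the same transcripts, a search added after the expression values were known. Its density was above the median of tested genes (1.27 copies per kilobase) in 9 of the 10, from 1.65 per kilobase in Egr1 to 8.16 in Ier3 and 56.3 in Ppp1r15a, whose 3' UTR is only 71 bases long. Ier2 held none. The stricter form TTATTTATT, the sequence tristetraprolin prefers, was in 3 of the 10, Zfp36, Dusp1 and Ppp1r15a, against 7.51% of tested genes and 3 of 34 paralogs of the members. Zfp36 thus holds the motif its own protein binds, and Ppp1r15a holds 4 overlapping copies in a row. These sites are shown with the motif in capitals, as the DNA strand of the mRNA on GRCm38, at chr7:28376951-28376979, chr17:26506159-26506187, chr17:26505870-26505898 and chr7:45522951-45522979, all on the minus strand.
Zfp36: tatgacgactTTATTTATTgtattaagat
Dusp1, first site: gagctggtccTTATTTATTtaacaccccc
Dusp1, second site: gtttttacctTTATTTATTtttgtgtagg
Ppp1r15a: cctaTTATTTATTTATTTATTTATTtgaa

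In marrow after PHZ all 10 genes were higher than in control marrow, with no overlap between the libraries of the groups. In spleen their log2 differences from control ran from -0.44 to 2.23, and differences between the members were not tested. Levels were compared with limma on log2(FPKM + 1) over all 11347 genes, with Benjamini-Hochberg adjustment and a threshold of 0.05. In PHZ BM HSC against control BM HSC the fit called 9 of the 10 higher, beside 1.48% of all tested genes called higher (2.74% in either direction), and the libraries did not overlap for 10 of 10, beside 12.3% of all genes in that direction. The median difference of the 10 was 2.24 on the log2 scale, against 0.01 for all tested genes. These are the values the genes were chosen on, and nothing further is read from them. Set against control BM HSC, PHZ SP HSC, a comparison that shares its control libraries with that choice, had 3 of the 10 called higher beside 0.626% of all genes, and 8 were higher without overlap beside 15.2%. Their median difference was 1.36, against 0.00 for all tested genes. The comparison of PHZ SP HSC with PHZ BM HSC uses the same PHZ marrow libraries in which the genes were chosen as high, a choice that favours lower values in spleen, and nothing is read from its counts. In it 5 were called lower beside 0.37% of all genes and 8 were lower without overlap beside 17.4%, with a median of -1.29. Leaving out 1 library at a time, the 3 counts of called members ranged from 8 to 10, from 1 to 5 and from 0 to 5 in the order just given. The last of these was 1 without PHZ SP HSC 1 and 0 without PHZ SP HSC 2. The count for spleen against control was 1 without either of them.

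**Figure D1:**
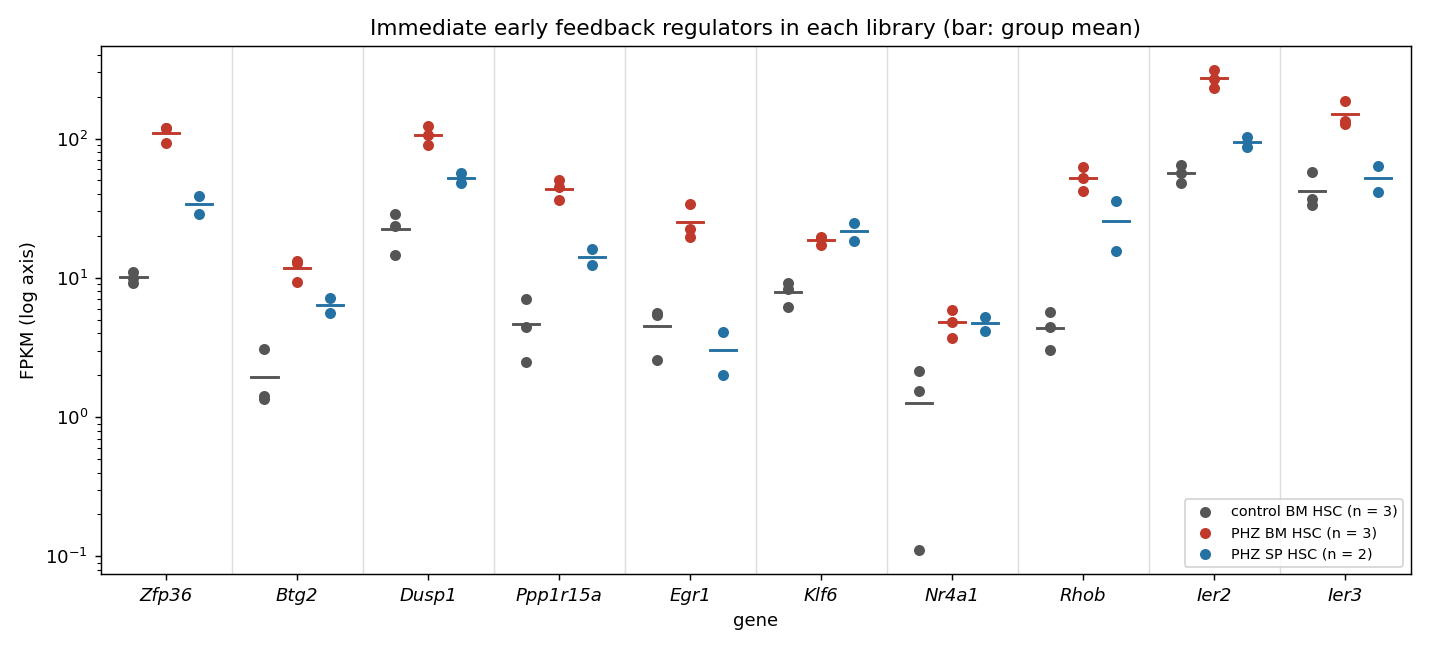
FPKM (log axis) of the 10 genes in the 8 libraries, a point per library and a bar at the group mean, for control BM HSC (n = 3), PHZ BM HSC (n = 3) and PHZ SP HSC (n = 2). For every gene the 3 PHZ BM HSC points lie above the 3 control points, while the PHZ SP HSC points reach the marrow level for Klf6 and Nr4a1 and the control level for Egr1 and Ier3.

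Among the members that act on mRNA, Zfp36, the decay factor named above, stood at 10.05, 11.02 and 9.14 FPKM in control BM HSC 1 to 3, at 119, 119.6 and 92.5 FPKM in PHZ BM HSC 1 to 3, and at 39.0 and 28.6 FPKM in PHZ SP HSC 1 and 2. The 3 groups were separate, with spleen between the marrow groups. The control libraries had a coefficient of variation of 9.32%. The log2 difference was 3.32 ± 0.18 (SE) in PHZ BM HSC and 1.64 ± 0.20 in PHZ SP HSC against control, the latter with an adjusted p of 0.00376 from limma, and spleen minus PHZ marrow was -1.69 ± 0.20. Without PHZ SP HSC 1, the spleen difference from control was 1.42 with an adjusted p of 0.083 from limma.

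Btg2, an antiproliferative protein that ties mRNAs to the CCR4-NOT deadenylase, was at lower levels. It stood at 1.34, 1.41 and 3.06 FPKM in control BM HSC, 13.1, 12.7 and 9.33 FPKM in PHZ BM HSC and 7.17 and 5.57 FPKM in PHZ SP HSC. The order of the groups was that of Zfp36 and again without overlap, with control 3 above the other control libraries. The log2 differences from control were 2.15 ± 0.27 in marrow and 1.37 ± 0.30 in spleen, and the spleen difference did not pass (limma adjusted p = 0.0631). It did so in 1 of 8 fits that left out a library, without control 3 (1.62, limma adjusted p = 0.0383), and in 0 of 7 other alternatives.

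Dusp1 and Ppp1r15a reverse 2 phosphorylation signals: Dusp1 dephosphorylates the MAP kinases, and Ppp1r15a (GADD34) brings protein phosphatase 1 to eIF2-alpha so that translation resumes after stress. Dusp1 stood at 28.8, 23.4 and 14.6 FPKM in control BM HSC, 122, 107 and 89.5 FPKM in PHZ BM HSC, and 56.3 and 47.9 FPKM in PHZ SP HSC. Spleen lay about midway between non-overlapping marrow groups. Its log2 difference from control was 2.24 ± 0.23 in marrow and 1.24 ± 0.25 in spleen (limma adjusted p = 0.0538). The spleen difference passed in 1 of 8 fits that left out a library, without control 1 (1.44, limma adjusted p = 0.0332). It passed in 2 of 7 other alternatives, 1 of them voom weights on the reads behind the FPKM values (1.31, limma adjusted p = 0.0348).

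Ppp1r15a stood at 7.00, 2.49 and 4.42 FPKM in control BM HSC, which were 201, 66 and 167 reads, and at 50.5, 44.8 and 36.2 FPKM in PHZ BM HSC. In PHZ SP HSC 1 and 2 it was at 12.3 and 16.0 FPKM. Every spleen library was above every control and below every PHZ marrow library. The log2 differences from control were 3.06 ± 0.28 in marrow and 1.498 ± 0.32 in spleen (limma adjusted p = 0.0582). The spleen difference passed in 1 of 8 fits that left out a library, without control 1 (limma adjusted p = 0.0251), and in 0 of 7 other alternatives. The Ppp1r15a difference between spleen and PHZ marrow, -1.56 ± 0.32, was past the threshold in only 2 of 8 fits that left out a library.

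Differences between the 3 transcription factors were not tested. Egr1, a zinc finger factor known to hold HSCs in quiescence, stood at 5.38, 5.599 and 2.57 FPKM in control BM HSC, 34.0, 19.5 and 22.6 FPKM in PHZ BM HSC, and 4.09 and 2.02 FPKM in PHZ SP HSC. Spleen overlapped control and lay below every PHZ marrow library, with 205 and 94 reads behind its values. The log2 difference was 2.27 ± 0.31 in PHZ BM HSC and -0.44 ± 0.35 in PHZ SP HSC against control (limma adjusted p = 0.583). Between spleen and PHZ marrow it was -2.71 ± 0.35, the largest of the 10 on this scale.

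Klf6, a zinc finger factor of the Krüppel-like family, was at 9.23, 8.31 and 6.15 FPKM in control BM HSC, 17.2, 19.6 and 19.3 FPKM in PHZ BM HSC and 18.4 and 24.9 FPKM in PHZ SP HSC. Both treated groups were above control and overlapped each other. The log2 differences from control were 1.16 ± 0.20 in marrow and 1.35 ± 0.23 in spleen (limma adjusted p = 0.0261), and spleen minus PHZ marrow was 0.19 ± 0.23. The spleen call for Klf6 held in 2 of 8 fits that left out a library, with limma adjusted p from 0.0292 to 0.125, and the log2 difference stayed between 1.14 and 1.56. The marrow call was lost without PHZ BM HSC 2 (1.13, limma adjusted p = 0.0707).

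Nr4a1, an orphan nuclear receptor that has been linked to HSC quiescence, was the least abundant member in control. It stood at 2.16, 1.54 and 0.111 FPKM in control BM HSC, the last of these being 5 reads, at 3.70, 4.85 and 5.89 FPKM in PHZ BM HSC and at 5.28 and 4.14 FPKM in PHZ SP HSC. As for Klf6, the treated groups overlapped and lay above all control libraries. Log2 differences from control were 1.47 ± 0.36 in marrow and 1.45 ± 0.41 in spleen, and neither was called, which makes Nr4a1 the only member not called in marrow (spleen: limma adjusted p = 0.119). The marrow difference passed in 1 of 8 fits that left out a library, without control 1 (1.77, limma adjusted p = 0.0378). With a low control library the size depends on the scale: the marrow and spleen differences were 2.39 and 2.37 with a pseudocount of 0.1 and 2.92 and 2.88 with voom, and were not called under either. Spleen minus PHZ marrow was -0.02 ± 0.41, an error that leaves room for differences in either direction.

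Rhob, a small GTPase of endosomes that is induced by stress and growth factors, had the largest ratio of means. It stood at 4.44, 3.01 and 5.73 FPKM in control BM HSC and at 52.3, 62.6 and 42.1 FPKM in PHZ BM HSC, an 11.9-fold ratio of the means. Its spleen libraries were unlike each other at 15.6 and 35.9 FPKM, yet both lay between the marrow groups. The log2 difference from control was 3.32 ± 0.30 in marrow and 2.23 ± 0.33 in spleen, the largest spleen difference of the 10 (limma adjusted p = 0.0151). Without PHZ SP HSC 2 it was 1.65 with a limma adjusted p of 0.0792.

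Ier2 and Ier3 encode short early response proteins, a nuclear one in the case of Ier2 and a regulator of survival signalling in that of Ier3, and were the most abundant members per length. Ier2 stood at 65.0, 48.0 and 56.6 FPKM in control BM HSC, 311, 267 and 232 FPKM in PHZ BM HSC and 103 and 86.9 FPKM in PHZ SP HSC. The groups did not overlap, with spleen closer to control. The log2 difference was 2.24 ± 0.16 in marrow and 0.74 ± 0.17 in spleen, and the spleen difference did not pass (limma adjusted p = 0.0809).

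Ier3 stood at 57.2, 33.2 and 36.7 FPKM in control BM HSC, 128, 133 and 187.5 FPKM in PHZ BM HSC and 41.04 and 63.6 FPKM in PHZ SP HSC. Spleen and control overlapped and PHZ marrow stood apart. The log2 difference was 1.82 ± 0.24 in marrow and 0.31 ± 0.26 in spleen (limma adjusted p = 0.615). Without PHZ SP HSC 2 the spleen value was -0.004.

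**Figure D2:**
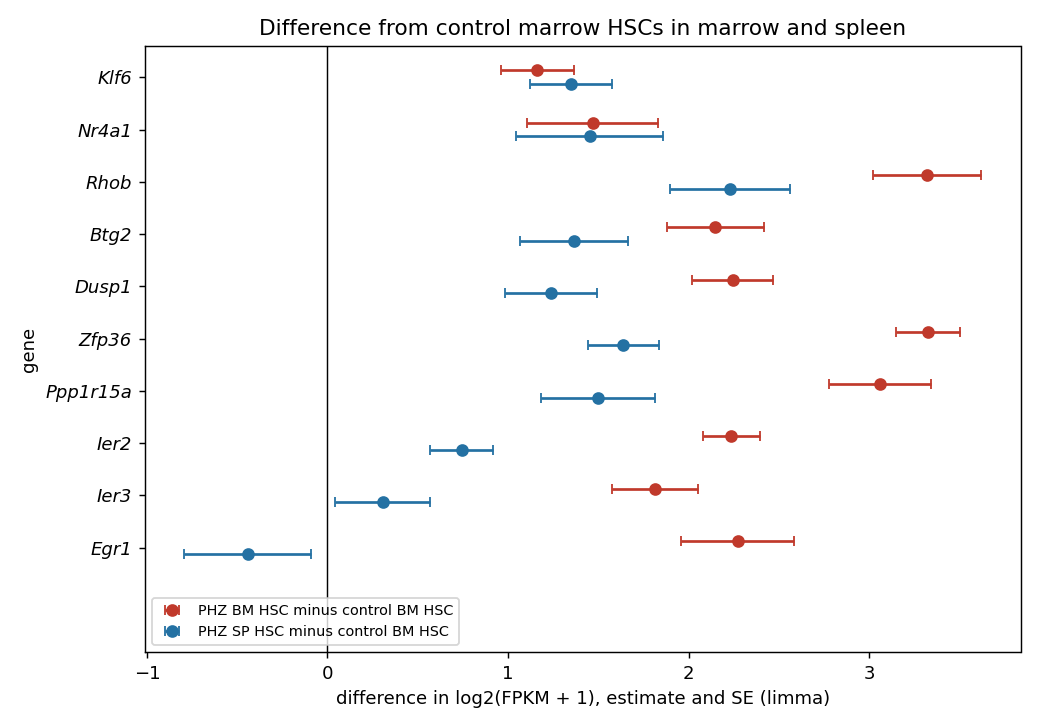
Difference in log2(FPKM + 1) from control BM HSC (limma estimate, bars ± SE) of PHZ BM HSC and of PHZ SP HSC for the 10 genes, ordered by the size of the spleen value relative to the marrow value. Klf6 (1.16 and 1.35) and Nr4a1 (1.47 and 1.45) have nearly equal values in both tissues, the next 7 lie to the right of 0 with the spleen value the smaller, and Egr1 goes from 2.27 to -0.44.

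The values of spleen against PHZ marrow are a description, since the genes were chosen as high in those PHZ marrow libraries. Of the 3 members called raised in spleen, Zfp36 and Rhob were lower there than in PHZ marrow in every library, and Klf6 was not. Egr1, Ier2, Ier3, Ppp1r15a and Zfp36 were the 5 called lower in spleen than in PHZ marrow, with log2 differences of -2.71, -1.49, -1.51, -1.56 and -1.69. Dusp1 (-1.01 ± 0.25), Rhob (-1.09 ± 0.33) and Btg2 (-0.78 ± 0.30) were lower without overlap and were not called. Dusp1 was called in 1 of 8 fits that left out a library and in 3 of 7 other alternatives, and Rhob and Btg2 in none. In bulk RNA of a sorted population, fewer cells with a transcript and less transcript per cell cannot be told apart.

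**Figure D3:**
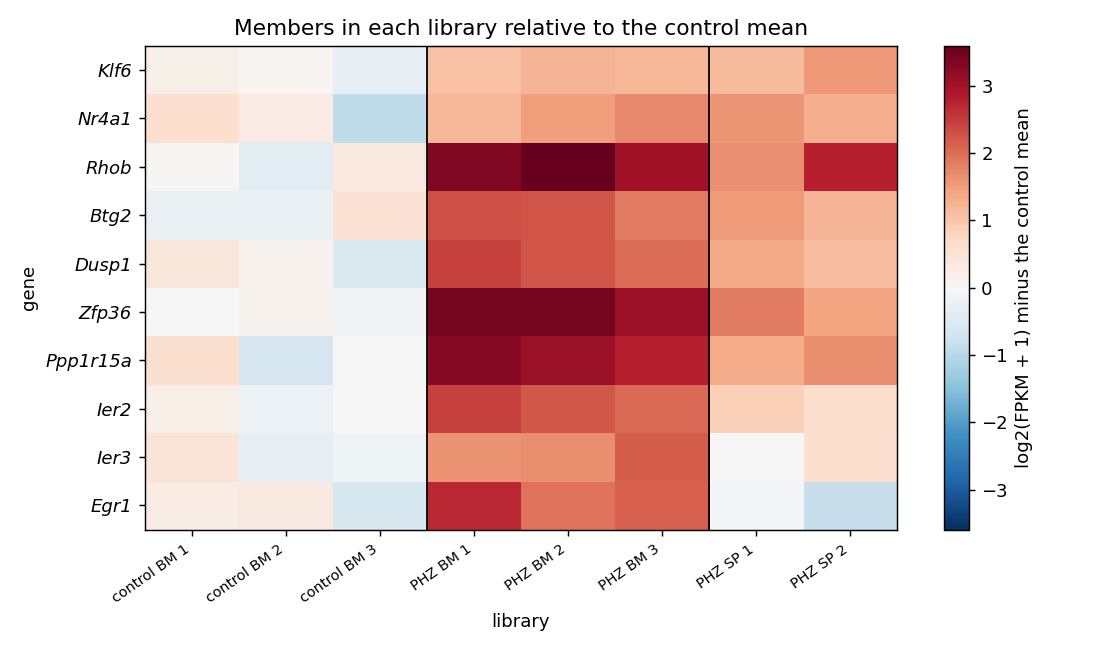
Log2(FPKM + 1) of each gene in each of the 8 libraries minus its mean in the 3 control libraries, with genes in rows and libraries in columns and lines between the groups. The 3 PHZ BM HSC columns are above the control mean for all 10 genes, the 2 PHZ SP HSC columns are paler except for Klf6 and Nr4a1, and Egr1 is below the control mean in both of them, at -0.06 in PHZ SP HSC 1 and -0.82 in PHZ SP HSC 2.

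The mean over the members, which were chosen as high in PHZ marrow, is given as a description. That mean on the log2(FPKM + 1) scale was 3.46, 3.13 and 3.04 in control BM HSC 1 to 3, 5.59, 5.54 and 5.42 in PHZ BM HSC 1 to 3 and 4.33 and 4.36 in PHZ SP HSC 1 and 2. The spleen libraries had nearly the same mean but differed gene by gene, since PHZ SP HSC 1 was the higher of the pair for 6 members, Zfp36, Btg2, Dusp1, Egr1, Nr4a1 and Ier2, and PHZ SP HSC 2 for 4, Klf6, Ppp1r15a, Rhob and Ier3. In the order of levels per length, Ier2 was first in all 3 groups by its mean. In control marrow it overlapped Ier3, and in PHZ marrow the libraries of Ier3 (128 to 187.5 FPKM) and Zfp36 (92.5 to 119.6 FPKM) were apart while those of Zfp36 and Dusp1 (89.5 to 122 FPKM) overlapped. Rhob moved up the order after PHZ. It had a mean of 4.40 FPKM in control, close to Egr1 at 4.52 and Ppp1r15a at 4.64, and one of 52.3 FPKM in PHZ marrow, where the ranges of Rhob and Ppp1r15a still overlapped and Egr1 at 25.4 FPKM was below both. In spleen Egr1 was last, at 3.05 ± 1.47 FPKM (SD, n = 2).

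Across the 8 libraries, the correlation of each member with the mean of the 10 on the log2(FPKM + 1) scale ran from r = 0.795 for Nr4a1, 0.799 for Egr1 and 0.81 for Klf6 to 0.99 for Zfp36. Over 45 pairs of members the lowest was that of Klf6 with Egr1, r = 0.344. The points share the groups, so such values describe mainly the order of the groups. Among tested genes outside the 10, those most like the members' mean were Clec2d (r = 0.983), Junb (0.98), C87436 (0.977), Pik3ip1 (0.977), Jun (0.973), Trim47 (0.971), Tsc22d3 (0.97), Rabac1 (0.967), Nop53 (0.967) and Snord17 (0.965), each over 8 libraries. Tsc22d3, a glucocorticoid-induced leucine zipper protein, had means of 35.7, 128 and 80.5 FPKM in control BM HSC, PHZ BM HSC and PHZ SP HSC, and Pik3ip1, an inhibitor of PI3 kinase, had 31.3, 93.8 and 56.0 FPKM.

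Most close relatives of the 10 did not pass in marrow. Of 34 paralogs, 28 were tested, and 3 were called higher in PHZ marrow than in control beside 1.48% of all genes. The median difference over the 28 was 0.26 (log2), against 0.01 for all tested genes. Dusp2, a nuclear MAP kinase phosphatase, was at 36.5, 51.8 and 56.0 FPKM in control, 227, 207 and 125 FPKM in PHZ marrow and 72.2 and 73.9 FPKM in spleen. Its log2 difference from control was 1.91 ± 0.22 in marrow (limma adjusted p = 0.00144) and 0.62 ± 0.25 in spleen, and it was called lower in spleen than in PHZ marrow (-1.29 ± 0.25, limma adjusted p = 0.0387).

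The other paralogs called belong to the Zfp36 family of decay factors. Zfp36l2 was at 57.0, 48.0 and 62.6 FPKM in control, 97.4, 103 and 85.4 FPKM in PHZ marrow and 49.7 and 50.7 FPKM in spleen, a log2 difference of 0.76 ± 0.15 in marrow (limma adjusted p = 0.0178) and of -0.91 ± 0.16 between spleen and PHZ marrow (limma adjusted p = 0.0268). Zfp36l1 had means of 4.62, 10.01 and 6.43 FPKM in the 3 groups, with a marrow difference of 0.95 ± 0.21 (limma adjusted p = 0.0368). None of the 28 passed between spleen and control with limma or voom, where 6 had an unadjusted p below 0.05 and the median was 0.15.

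**Figure D4:**
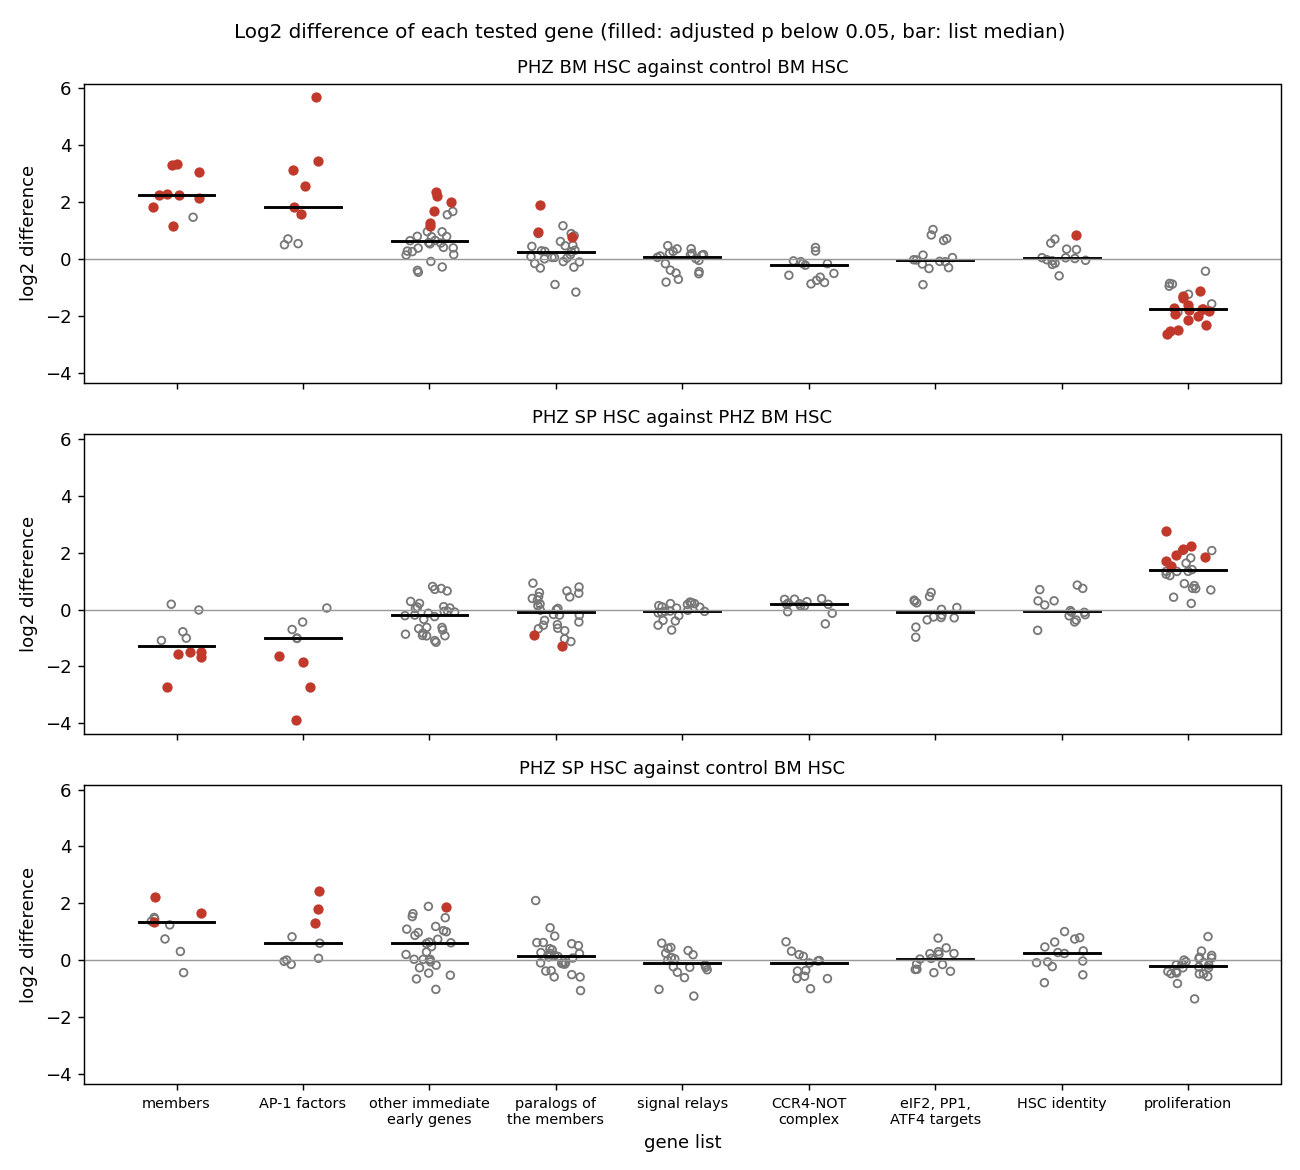
Log2 difference of each tested gene, a point per gene, in 9 gene lists and 3 comparisons, filled where the limma adjusted p is below 0.05, with a bar at the list median. The members and the AP-1 factors lie high in PHZ BM HSC against control and low in PHZ SP HSC against PHZ BM HSC, the proliferation genes do the opposite in both, and the signal relays, CCR4-NOT list and eIF2, PP1 and ATF4 genes hold no filled point.

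Among 29 tested other immediate early genes, 6 were called higher in PHZ marrow beside 1.48% of all genes, Per1, Hes1, Socs3, Rgs1, Pim1 and Nfkbiz, with a list median of 0.64. Hes1, a Notch target that represses transcription, was the only one called higher in spleen than in control. It stood at 1.88, 1.02 and 0.358 FPKM in control, 7.84, 6.73 and 10.3 FPKM in PHZ marrow and 7.97 and 4.81 FPKM in spleen, and its log2 difference from control was 2.20 ± 0.31 in marrow (limma adjusted p = 0.00433) and 1.86 ± 0.35 in spleen (limma adjusted p = 0.0423, a call not made with voom). Spleen and PHZ marrow overlapped, as for Klf6 and Nr4a1.

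Per1, a circadian repressor that signalling also induces, had a marrow difference of 2.01 ± 0.28 and a spleen difference of 1.18 ± 0.31, which did not pass (limma adjusted p = 0.0989). Socs3, the feedback inhibitor of JAK and STAT signalling, was at 1.36, 2.38 and 0.945 FPKM in control, 6.17, 9.89 and 25.7 FPKM in PHZ marrow and 5.15 and 8.77 FPKM in spleen. Its marrow difference was 2.36 ± 0.43 (limma adjusted p = 0.0138) and its spleen difference 1.64 ± 0.48 (limma adjusted p = 0.134). Pim1, a survival kinase, was at 7.64, 8.92 and 10.1 FPKM in control, 17.1, 18.7 and 30.02 FPKM in PHZ marrow and 7.00 and 11.6 FPKM in spleen. Its spleen values thus spanned those of control, with a difference of 0.03 ± 0.29 whose sign turned when PHZ SP HSC 2 or control 1 was left out.

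For the AP-1 factors, 6 of 9 tested were called higher in PHZ marrow (1.48% of all genes) and 3, Fos, Junb and Jun, were called higher in spleen (0.626%), of which voom did not call Fos. These had log2 differences from control of 1.80, 1.30 and 2.43 there and of 5.69, 3.14 and 3.45 in marrow. Fosl2 was called in marrow (1.82 ± 0.33) and not in spleen (0.82 ± 0.37), and Fosb and Jund were not called in spleen against control (-0.15 ± 0.31 and -0.04 ± 0.26, signs that turn when control 2 is left out).

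For genes that work beside the members, limma made no call. None of 20 tested kinases and factors that relay signals to immediate early promoters passed in any of the 3 comparisons (median log2 difference 0.08 in PHZ marrow against control), and neither did 13 genes of the deadenylation machinery with which Zfp36 and Btg2 act, namely CCR4-NOT genes and the poly(A)-binding protein gene Pabpc1 (-0.22), 14 eIF2 kinases, phosphatase subunits and ATF4 targets around Ppp1r15a (-0.03), or the 2 corepressors of the EGR factors. At an unadjusted p below 0.05 there were 4, 5, 5 and 0 of these in PHZ marrow against control, 0, 1, 4 and 0 in spleen against PHZ marrow and 3, 5, 2 and 1 in spleen against control, and voom called 1, Pabpc1, lower in the first comparison and none elsewhere. With 2.74% of all genes called in PHZ marrow against control, lists this short would hold less than 1 call at the share of all genes, so the lack of calls says little about them. These values are of mRNA, which does not report the phosphorylation by which the relays act.

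Cell cycle genes went opposite to the members in the comparisons that use PHZ BM HSC, the libraries in which the members were chosen as high. Of 24 proliferation genes, 16 were called lower in PHZ marrow than in control (1.26% of all genes were), with a median of -1.75. In spleen against PHZ marrow 7 were called higher by limma and 4 by voom (limma called 0.608% of all genes), with a median of 1.37, and none passed between spleen and control with limma or voom (median -0.21, 2 at an unadjusted p below 0.05). Their summed level was 316 to 517 FPKM in control, 92.4 to 187.5 FPKM in PHZ marrow and 348 to 354 FPKM in spleen. Top2a, the DNA topoisomerase of dividing cells, was at 14.4, 11.3 and 21.8 FPKM, 2.82, 3.31 and 3.06 FPKM, and 8.21 and 13.7 FPKM in the same order. Rrm2, a ribonucleotide reductase subunit, was called lower in PHZ marrow (-1.92 ± 0.27) and higher in spleen than there (2.75 ± 0.31). Nusap1, a spindle protein, had differences of -2.51 ± 0.31 and 1.94 ± 0.35 and passed in both, whereas Mki67, the Ki-67 antigen (-1.82 ± 0.26 and 1.34 ± 0.29), and Ccnb2, a mitotic cyclin (-2.64 ± 0.40 and 1.81 ± 0.44), passed only in marrow against control. The erythroid, neutrophil and monocyte marker sums were also highest in PHZ SP HSC, as was Klrb1c but not Nkg7 or the sum of the T and NK list, and in PHZ SP HSC 5 of 8 erythroid markers and 1 of 8 neutrophil markers were called higher than in control (0.626% of all genes). Lyz2, at means of 262, 218 and 299 FPKM in control, PHZ marrow and spleen, made up most of the monocyte sum. Of the 4 monocyte markers tested, 3 were higher and 1, C1qb, was lower in spleen than in control, and none was called. The 3 tested B cell markers differed between spleen and PHZ marrow by 0.43 to 1.44 (log2), and none was called. Of 6 megakaryocyte markers, summing to 118 to 139 FPKM in control, 89.6 to 115.5 FPKM in PHZ marrow and 88.9 to 146 FPKM in spleen, limma called 2 lower in PHZ marrow than in control, Pf4 (-1.06) and Ppbp (-1.46), beside 1.26% of all genes. In the same comparison Itgb3 (1.13) and Itga2b (0.69) had differences of the opposite sign and were not called. The part of cell cycle state and of these markers in the levels of the 10 genes was not tested.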

How the data were processed

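Per the authors' methods, cDNA of sorted HSCs was made by SMART-Seq2 and barcoded with Nextera XT, and the submitters' processing notes name STAR, mm10 and DESeq2. The gene counter, annotation and strand handling are not given in the sources used here. The authors deposited FPKM values in 3 tables, 1 per group, and tables of their own DESeq2 fold changes and p-values, which were not used. Marrow columns are named WBM and were taken as HSCs, the labelled cell type.

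The PHZ tables were scaled together and the control table apart from them, so values were worked back to reads. All 110442 values above 0 came out whole within 0.001 reads. The FPKM values were then rescaled with 1 set of median-of-ratios factors, which moved no library by more than 1.05%. Limma 3.58.1 (R 4.3.3, trend and robust options) was fitted on log2(FPKM + 1) over all 8 libraries and 15142 genes in all 3 tables, of which 11347 had at least 1 FPKM in at least 2 libraries. Fold changes on this scale understate those of low genes. There are no molecular identifiers, so read numbers are not numbers of molecules. The fit was run on simulated data, whose outcome is not given here. The members and lists were chosen with earlier results of these data known. Besides the members, the text names genes of each list past the threshold in any comparison (at most 6 a list) and the 10 genes most correlated with the members' mean. Cell type markers, and Pabpc1 for its voom call, are named outside this rule. Alternatives were the deposited scaling, total reads without Rn45s, a pseudocount of 0.1, no filter, voom on the reads, the 2 compared groups alone, a replicate block and leaving out each library. Replicate numbers did not pair the libraries (correlation of same-numbered deviations from the group means -0.008 to 0.060).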

Additional observations from a re-analysis of the deposited data

How the results depend on the processing

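Without a filter on low values, 3 members were called between spleen and PHZ marrow and 1 between spleen and control, and all genes called were 205 (PHZ marrow against control), 62 and 46. Voom called 69 of all genes between spleen and PHZ marrow. Between spleen and control a pseudocount of 0.1 called 39 and a fit of the 2 groups alone 44. Leaving out 1 library, members called ranged from 8 to 10 in PHZ marrow against control, from 0 to 5 between spleen and PHZ marrow and from 1 to 5 between spleen and control, and all genes called from 114 to 306, from 5 to 148 and from 14 to 83. These fits have fewer residual degrees of freedom, and a lone spleen library is assumed to vary like the other groups. The replicate block, by numbers that do not pair the libraries, called 9, 4 and 3 members and 294, 112 and 73 of all genes.

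Directions turned for some genes that were not called, with log2 differences from -0.15 to 0.61, and the cause was not tested. Between spleen and PHZ marrow, leaving out 1 library gave -0.023 to 0.39 for Klf6 and -0.16 to 0.13 for Nr4a1. Between spleen and control it gave -0.0042 to 0.61 for Ier3, -0.018 to 1.23 for Rgs1, -0.30 to 0.35 for Pim1, -0.43 to 0.12 for Fosb, -0.26 to 0.10 for Jund and -0.13 to 0.28 for Ccna2. Pim1 was -0.020 on total reads and -0.0056 with voom, and Jund 0.036 under the block.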
